A study of Mus musculus with 6 samples.

Results

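The lipid-sensing nuclear receptors LXR, PPAR and RXR, together with the sterol export genes that LXR controls, were followed in CD4+ dendritic cells (DC) of the mouse spleen with and without the transcription factor Runx3. A gene was taken when a probe set carried its symbol and no other. Of 10 listed genes (Nr1h3, Nr1h2, Pparg, Ppard, Rxra, Rxrb, Abca1, Abcg1, Mylip and Apoe), 9 were found, each with 1 probe set among the 35399 of the array. Nr1h2, which encodes LXR-beta, was not analysed here. The study asked which genes depend on Runx3 in these cells, and hybridised RNA from 6 mice to 6 Affymetrix arrays. Male mice aged 6 weeks formed 3 litters, each giving 1 Runx3-/- animal, in which Runx3 was lost from the germline and so in every cell type throughout life, and 1 Runx3 +/+ littermate (WT). Replicate numbers name the litter. Splenic cells carrying CD11c and MHCII were sorted by CD4 and CD8. The labels also mention Esam, without saying how it entered the gate.

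The liver X receptors (LXR) are bound by oxysterols, which are oxidised forms of cholesterol, and switch on genes that carry sterol out of the cell. The peroxisome proliferator-activated receptors (PPAR) respond to fatty acids and their derivatives. Both kinds of receptor bind DNA as heterodimers with a retinoid X receptor (RXR), on paired half-sites separated by a spacer that is longer for LXR than for PPAR. In macrophages and DC these receptors link lipid uptake, for instance from engulfed cells, to sterol export and to the tone of inflammatory genes.

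The starts of Abca1, Nr1h3 and Pparg are shown because these genes had the largest changes among the members, and because the Abca1 window held the one match to an LXR-type element. Each window runs from 250 bases before to 50 bases after a RefSeq transcript start (build GRCm38.p6), on the strand of the gene. Capitals mark the match, and windows without a match are in lower case. For Pparg, which has several annotated starts, the most upstream is given, and of the Nr1h3 windows also the most upstream.
Abca1, chr4:53159846-53160145, minus strand: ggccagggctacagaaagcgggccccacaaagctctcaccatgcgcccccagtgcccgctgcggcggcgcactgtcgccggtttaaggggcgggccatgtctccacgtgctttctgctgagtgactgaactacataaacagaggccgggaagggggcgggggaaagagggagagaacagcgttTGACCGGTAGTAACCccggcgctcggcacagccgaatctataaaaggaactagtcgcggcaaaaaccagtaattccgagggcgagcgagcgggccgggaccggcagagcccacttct
Nr1h3, chr2:91195067-91195366, minus strand: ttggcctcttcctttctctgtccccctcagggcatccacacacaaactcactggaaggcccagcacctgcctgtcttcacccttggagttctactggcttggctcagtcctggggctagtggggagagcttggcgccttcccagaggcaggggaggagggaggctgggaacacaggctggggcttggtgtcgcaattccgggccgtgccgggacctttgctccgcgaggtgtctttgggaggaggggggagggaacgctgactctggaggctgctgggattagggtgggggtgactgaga
Pparg, chr6:115360894-115361193, plus strand: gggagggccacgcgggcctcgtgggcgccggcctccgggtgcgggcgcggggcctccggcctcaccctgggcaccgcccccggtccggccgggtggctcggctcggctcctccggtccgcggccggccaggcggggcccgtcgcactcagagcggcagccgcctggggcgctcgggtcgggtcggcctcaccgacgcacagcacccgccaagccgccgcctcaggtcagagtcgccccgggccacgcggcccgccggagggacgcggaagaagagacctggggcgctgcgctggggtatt
RefSeq windows were found for 9 of the 10 listed genes, 16 windows in all, with Nr1h2 among them and Abcg1 not, so Abcg1 was not searched. An LXR-type element (DR4), spelled as the half-site GGTNA, 5 unspecified bases and GGTNA again, was searched on both strands and stood in 1 member window and in 0.718% of all 32851 windows. In the Abca1 window the match lay on the opposite strand, at positions -67 to -53 from the start, and read GGTTACTACCGGTCA on its own strand. The PPAR-type element (DR1), with 2 unspecified bases between the same half-sites, was in 0 member windows and 1.1% of all windows. The RUNX letters TGTGGT were in 0 member windows and 16.8% of all windows. GC content was 62.7% in the Abca1 window, 63.0% in the Nr1h3 window and 80.3% in the Pparg window. These matches describe letters in short windows and are not binding measurements.

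The arrays were alike in level, with medians of 6.57 to 6.65 on the log2 scale of all values given here. Between 50.7% and 51.3% of probe sets per array lay at or above 6.5, the background level of the study's methods, and the 19149 probe sets that did so in at least 1 array were tested with limma. A gene is called where its p, adjusted by the Benjamini-Hochberg method over all tested probe sets, was at most 0.05. Runx3 itself (probe set 10509030) read 9.16, 9.30 and 9.16 in Runx3-/- litters 1, 2 and 3, against 11.24, 11.22 and 11.11 in WT. It fell by 1.98 on the log2 scale (SE 0.08, limma, adjusted p = 0.0027) to 25.3% of the WT level, and the exact two-sided permutation p was 0.1, which is the lowest value possible with 3 arrays a group. The array labelled Runx3-/- 3 stood apart in plasmacytoid DC genes, with a mean log2 level over 7 markers of 9.24 against 8.09 and 8.33 in the other Runx3-/- arrays and 7.90 to 8.03 in WT. Results without litter 3 are therefore given with the member calls.

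Of the 9 measured members, Nr1h3, Pparg, Rxra and Abca1 were higher in Runx3-/- DC at the adjusted threshold, and none was called lower. All 9 members had passed the filter on dim probe sets, so none is missing from this count. Of all 9922 tested genes, represented by 1 probe set each, 1.36% were called higher and 0.907% lower, and of all tested probe sets 1.56% were called. The median log2 change was 0.52 over the members and -0.03 over all tested genes. Members were chosen with earlier results of these data known, so these contrasts describe the set and do not test it. The study's cut-offs are a raw p no higher than 0.05 and at least a 1.5-fold change. Applied here to the limma p, they were met by the same 4 members, against 4.68% of tested genes, counting both directions. These are bulk samples, in which a change in the make-up of the sorted cells and a change in RNA per cell cannot be told apart.

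The member calls depended on which arrays and which model were used. With the litter as a block in the limma fit, 0 members were called, and the adjusted p was 0.0892 for Nr1h3, 0.0901 for Pparg, 0.0901 for Rxra and 0.0759 for Abca1. That fit called 0 of all probe sets, with 3430 at a raw p no higher than 0.05. Leaving out 1 array left 1 call without Runx3-/- 1, 2 without Runx3-/- 2, 2 without WT 2, and 0 without Runx3-/- 3, WT 1 or WT 3. Without both arrays of litter 3, a setting chosen after seeing the data, 0 members were called, although the log2 changes were 1.66 for Nr1h3, 1.39 for Pparg, 0.69 for Rxra and 1.503 for Abca1. The direction of these 4 changes was the same in every one of these fits. It could not differ, since all Runx3-/- arrays lay above all WT arrays and the litter block leaves the change as it is. Over the whole table, 0 probe sets were called without litter 3 or without WT 1 and 1 was called without Runx3-/- 3, so the calls of other genes given below rest on the fit of all 6 arrays by genotype alone.

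**Figure D1:**
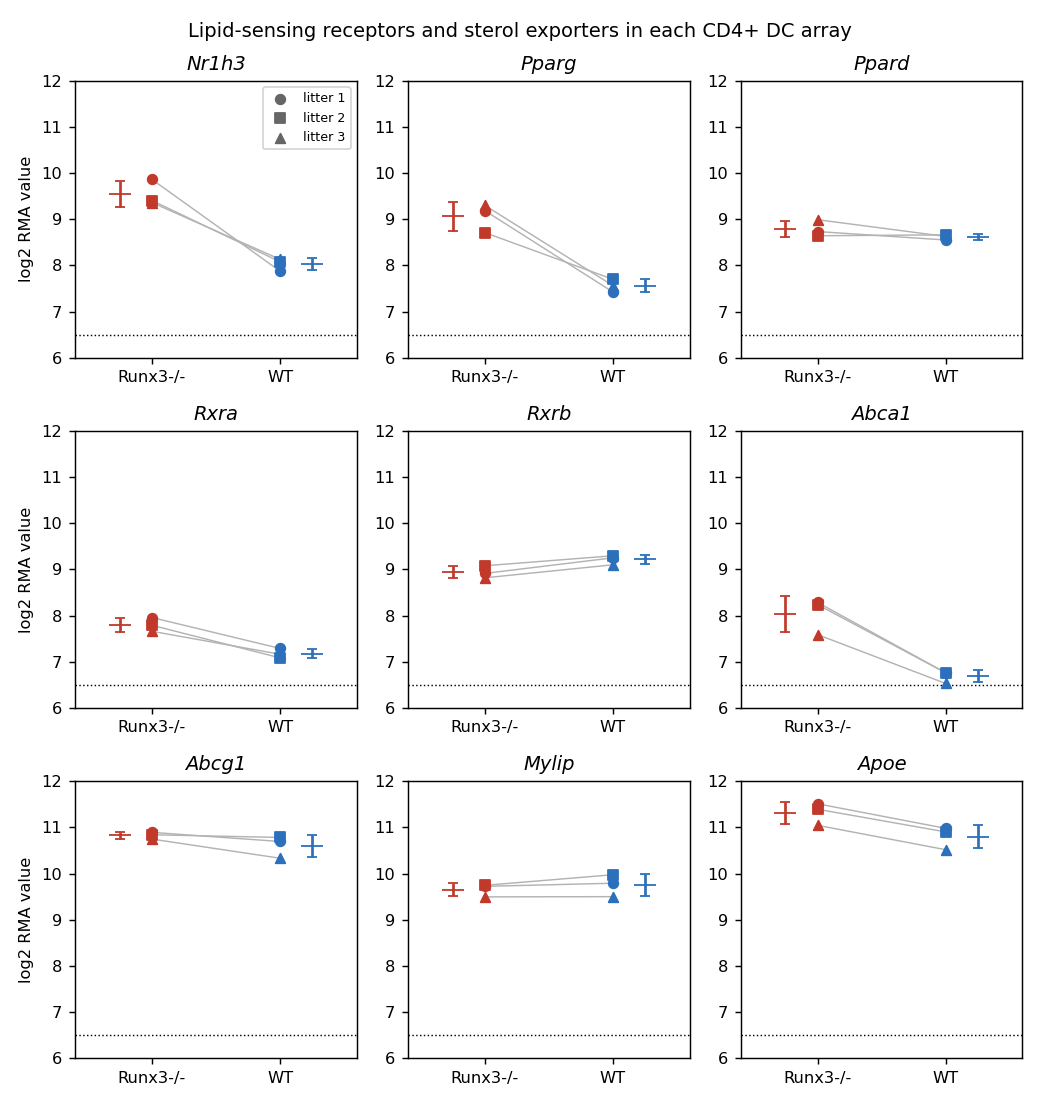
Log2 level of each measured member in each array, Runx3-/- left of WT, with a symbol for each litter, a line joining littermates, bars at the group mean ± SD (n = 3) and a dotted line at the background of 6.5. For Nr1h3, Pparg, Rxra and Abca1 every Runx3-/- array lies above every WT array, whereas Ppard, Abcg1 and Mylip overlap.

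Among the receptors, Nr1h3, which encodes LXR-alpha, had the largest change. The Nr1h3 probe set (10484987, Entrez gene 22259) read 9.87, 9.41 and 9.36 in Runx3-/- DC of litters 1, 2 and 3, against 7.88, 8.08 and 8.13 in WT. All Runx3-/- arrays were above all WT arrays, and litter 1 had both the highest Runx3-/- and the lowest WT value. Mean levels were 9.55 ± 0.28 in Runx3-/- and 8.03 ± 0.13 in WT (SD, n = 3 each). The log2 change was 1.52 (SE 0.15, limma, adjusted p = 0.0175), a 2.86-fold higher level with a 95% interval of 2.21 to 3.71. A change this large in either direction was seen in 0.392% of tested probe sets. The litter differences were 1.99, 1.33 and 1.23, so the change in litter 1 was the largest. Nr1h3 was called in 8 of 14 alternative settings, with adjusted p between 0.0125 and 0.151.

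Pparg encodes PPAR-gamma, a receptor known for lipid storage in adipocytes and for lipid handling in alveolar macrophages. Its probe set (10540897, Entrez gene 19016) read 9.19, 8.71 and 9.30 in Runx3-/- litters 1, 2 and 3, against 7.43, 7.70 and 7.56 in WT. The groups did not overlap, and litter 2 had the narrowest difference at 1.01, against 1.76 in litter 1 and 1.74 in litter 3. Pparg averaged 9.07 ± 0.31 in Runx3-/- and 7.56 ± 0.14 in WT (SD, n = 3 each). This is a log2 change of 1.51 (SE 0.17, limma, adjusted p = 0.0205), or 2.84-fold with a 95% interval of 2.14 to 3.77. It was called in 7 of 14 alternatives, with adjusted p from 0.0141 to 0.195.

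Ppard, the gene of the widely expressed PPAR-delta, was not called. It read 8.73, 8.64 and 8.99 in Runx3-/- litters 1, 2 and 3, against 8.55, 8.66 and 8.63 in WT, so the groups overlapped. The log2 change of 0.18 had a 95% interval of -0.08 to 0.43 (limma, adjusted p = 0.484). Within each array, the log2 ratio of Pparg to Ppard can be set against its WT mean. Relative to that mean, the ratio was 1.51, 1.12 and 1.36 in Runx3-/- litters 1, 2 and 3 and -0.08, 0.09 and -0.01 in WT. The difference of the 2 changes was 1.33, and all Runx3-/- ratios exceeded all WT ratios (exact two-sided permutation p = 0.1, the smallest possible, and 0.1 after adjustment over the 3 pairs compared in this way). These 3 pairs were chosen after their values were seen, each setting a called member against a member not called. Their p-values do not account for that choice.

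The RXR genes, whose products are the obligate partners of LXR and PPAR, had changes of opposite sign. Rxra (probe set 10470446, Entrez gene 20181) read 7.96, 7.79 and 7.66 in Runx3-/- litters 1, 2 and 3, against 7.29, 7.08 and 7.16 in WT. Rxrb (10444137, Entrez gene 20182) read 8.91, 9.08 and 8.82 in Runx3-/-, against 9.25, 9.30 and 9.10 in WT. Neither gene overlapped between genotypes, Rxra being higher and Rxrb lower in every litter. The Rxra change of 0.63 (SE 0.10) was 1.54-fold with a 95% interval of 1.30 to 1.83, and its adjusted p of 0.0499 (limma) lay just inside the threshold. Rxra was called in 3 of 14 alternatives and lost the call when any one array was left out. The Rxrb change of -0.28 (SE 0.10, 95% interval -0.52 to -0.04) did not pass (limma, adjusted p = 0.245). Over all tested genes, 9.86% were without overlap and higher and 18.6% without overlap and lower, so a separation like that of Rxrb was common in these arrays. The log2 ratio of Rxra to Rxrb, relative to its WT mean, was 1.08, 0.75 and 0.88 in Runx3-/- litters 1, 2 and 3 and 0.07, -0.17 and 0.10 in WT, an increase of 0.90 (exact two-sided permutation p = 0.1, the smallest possible; adjusted over the 3 pairs 0.1). This pair too was chosen after its values were seen, which the p does not account for.

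**Figure D2:**
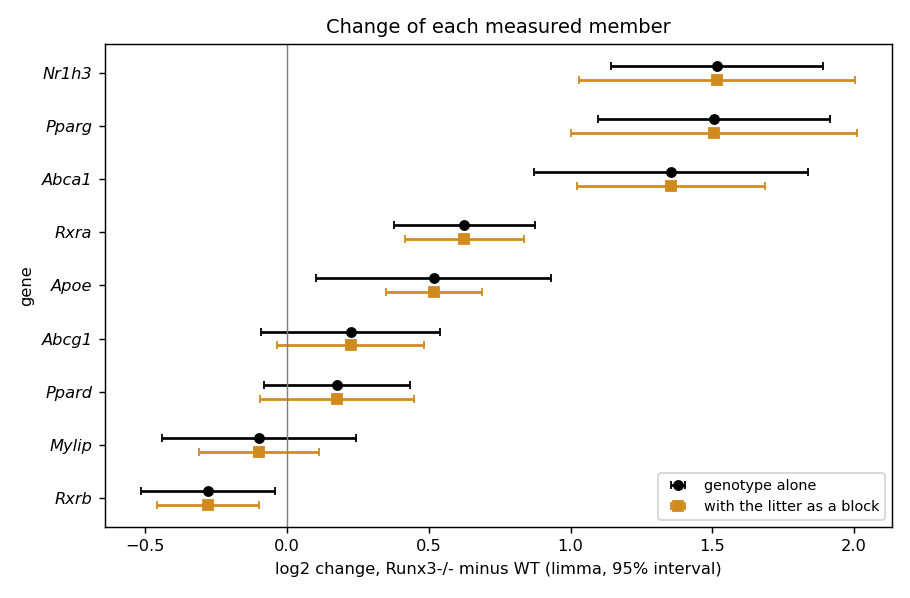
Log2 change, Runx3-/- minus WT, of each measured member with its 95% interval from limma, for the fit on genotype alone (circles) and with the litter as a block (squares). The changes of Nr1h3, Pparg and Abca1 are 1.52, 1.51 and 1.36, and the intervals of Ppard, Abcg1 and Mylip include 0 in both fits.

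Among the export genes, Abca1 changed most. ABCA1 moves cholesterol and phospholipid from the plasma membrane to lipid-poor apolipoproteins and is a classical LXR target. Its probe set (10512949, Entrez gene 11303) read 8.29, 8.24 and 7.59 in Runx3-/- litters 1, 2 and 3, against 6.76, 6.76 and 6.53 in WT. The WT values lay just above the background of 6.5, where log2 arrays understate differences, and Runx3-/- 3 was the lowest of its group. Means were 8.04 ± 0.39 in Runx3-/- and 6.68 ± 0.13 in WT (SD, n = 3 each). The log2 change was 1.36 (SE 0.20, limma, adjusted p = 0.0373), a 2.56-fold higher level with a 95% interval of 1.83 to 3.58. It was called in 5 of 14 alternatives, with adjusted p from 0.028 to 0.158. The Abca1 promoter window held the LXR-type letters printed above, which are not a binding measurement. A role of LXR in this change was not tested.

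ABCG1, which passes cholesterol on to mature lipoprotein particles, is also an LXR target, and its gene was not called. Abcg1 read 10.89, 10.84 and 10.75 in Runx3-/- litters 1, 2 and 3, against 10.69, 10.78 and 10.33 in WT, and the groups overlapped. Its log2 change of 0.22 had a 95% interval of -0.09 to 0.54 (limma, adjusted p = 0.466). The log2 ratio of Abca1 to Abcg1, relative to its WT mean, was 1.32, 1.32 and 0.76 in Runx3-/- litters 1, 2 and 3 and -0.01, -0.10 and 0.12 in WT. The difference of the changes was 1.13 (exact two-sided permutation p = 0.1, the smallest possible; adjusted over the 3 pairs 0.1), and between 1.04 and 1.32 when any one array was left out. Here again the pair was chosen after its values were seen, which the p does not account for.

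Apoe encodes apolipoprotein E, a lipid carrier secreted by macrophages. It read 11.51, 11.39 and 11.05 in Runx3-/- litters 1, 2 and 3, against 10.98, 10.90 and 10.52 in WT. The groups did not overlap, and the litter differences were alike at 0.53, 0.49 and 0.53, since both arrays of litter 3 were low. The log2 change of 0.52 (95% interval 0.10 to 0.93) was 1.43-fold and did not pass (limma, adjusted p = 0.225). With the litter as a block its SE was 0.06, against 0.17 without, and the adjusted p was 0.0896.

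Mylip encodes an E3 ubiquitin ligase that marks the LDL receptor for degradation, and LXR uses it to curb sterol uptake. It read 9.72, 9.74 and 9.49 in Runx3-/- litters 1, 2 and 3, against 9.79, 9.97 and 9.50 in WT. The groups overlapped almost fully, with a log2 change of -0.10 and a 95% interval of -0.44 to 0.24 (limma, adjusted p = 0.786).

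The 4 called members did not all rank the litters in the same order. Each litter difference rests on a single array per genotype, and differences in this order were not tested. Litter 1 had the largest Nr1h3 and Abca1 differences, litter 1 and litter 3 the larger Pparg differences, and litter 2 the largest Rxra difference, at 0.71 against 0.67 and 0.50. The likeness of patterns was measured as the root mean square difference over the 6 arrays, each gene taken relative to its WT mean. By this measure Nr1h3 and Pparg lay 0.216 apart and Nr1h3 and Abca1 0.255 apart, while Rxrb and Mylip were the closest members at 0.157. Over all tested genes, the patterns nearest to Nr1h3 were P2ry12 (0.0851), Mmp14 (0.107) and Msr1 (0.120). Msr1 encodes a scavenger receptor for modified lipoproteins, and P2ry12 a receptor for ADP. Nearest to Pparg were Clec12a (0.135), Cx3cr1 (0.150) and Rftn1 (0.157). Nearest to Abca1 were Cd69 (0.112), Sema6d (0.145) and Gpr31b (0.157). Of these 9 neighbours, 8 were called higher, and Gpr31b was not (limma, adjusted p = 0.0556). The measure includes the genotype change itself, so it picks genes with similar changes, and these calls follow from the choice.

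Of 16 other LXR target genes listed, 14 were on the array and 10 were tested, of which 2 were called higher, 1 lower and 7 not. The log2 change was positive for 8 of the 10 and negative for 2, with a median of 0.26, and the groups did not overlap for 4 genes higher and 1 lower. Of all tested genes, 9.86% were higher and 18.6% lower without overlap, and 1.36% were called higher and 0.907% called lower. The log2 change was positive for 4099 of the 9922. Mertk, a receptor for the engulfment of dying cells, read 9.48, 9.50 and 9.32 in Runx3-/- litters 1, 2 and 3, against 7.49, 7.96 and 7.003 in WT. Its log2 change was 1.95 (SE 0.23, limma, adjusted p = 0.0241), more than that of any member. Cd5l, a secreted protein of tissue macrophages, averaged 6.90 ± 0.10 in Runx3-/- (SD, n = 3). All 3 WT arrays were below background for Cd5l, so the level was at least 1.32-fold higher (limma, adjusted p = 0.0373), where the bound sets the Runx3-/- mean against 6.5. Cd5l passed the filter only through Runx3-/- arrays, which favoured a higher value. Fasn, which encodes fatty acid synthase, read 8.76, 8.82 and 8.80 in Runx3-/- litters 1, 2 and 3, against 9.27, 9.25 and 9.27 in WT, and fell by 0.47 (SE 0.06, limma, adjusted p = 0.0286). The called LXR targets thus include a lipid synthesis gene that was lower beside macrophage genes that were higher. Srebf1, the LXR-driven regulator of fatty acid synthesis, had a log2 change of -0.07, against 0.43 for Smpdl3a, a sphingomyelin phosphodiesterase-like gene, and 0.33 for Pltp, the phospholipid transfer protein, none of them called.

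PPAR target genes were centred near 0. Of 20 listed, 17 were on the array and 12 were tested, with a median log2 change of -0.03. Limma called 1 gene higher and 0 lower, against 1.36% and 0.907% of all tested genes. That gene was Fabp5, which encodes a cytosolic fatty acid carrier of macrophages and skin. It read 11.16, 10.09 and 10.54 in Runx3-/- litters 1, 2 and 3, against 8.62, 8.44 and 9.09 in WT. The groups did not overlap, and the log2 change was 1.88 (SE 0.30, limma, adjusted p = 0.0449), with 1.85 on a second Fabp5 probe set (10490838, adjusted p = 0.0453). Cd36, a scavenger receptor and fatty acid transporter, changed by 0.41 (adjusted p = 0.232), Tgm2, a transglutaminase, by -0.37 (adjusted p = 0.226) and Acadvl, an enzyme of fatty acid oxidation, by -0.34 (adjusted p = 0.308), all in limma and none called. Fabp4, Angptl4, Pdk4, Cidec and Ucp3 were below background in all 6 arrays.

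**Figure D3:**
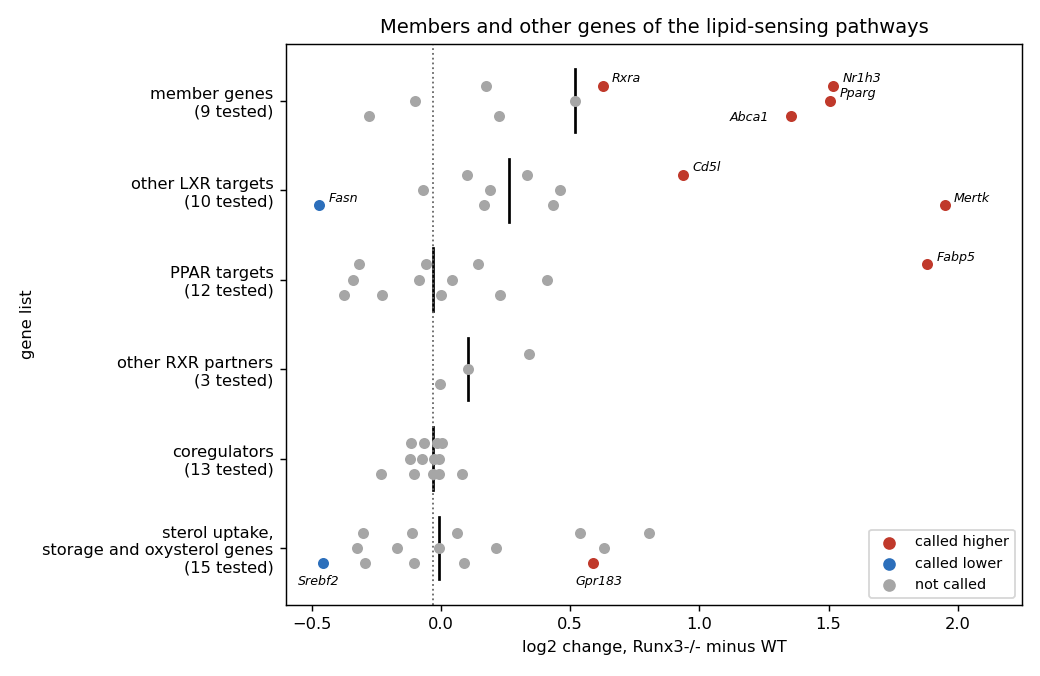
Log2 change, Runx3-/- minus WT, of each tested gene in the member set and 5 related lists, coloured by the limma call, with the list median as a bar and the median of all tested genes as a dotted line. Medians are 0.52 for the members, 0.26 for other LXR targets and -0.03 for PPAR targets and coregulators, and single genes (Mertk, Fabp5) lie far from their list.

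Other nuclear receptors that pair with RXR were mostly below background. Of 13 listed, 10 were below background in all arrays and 3 were tested. Limma called 0, with 1 at a raw p no higher than 0.05. The methods' t-test, adjusted in the same way, also called 0. Rarg and Rara, genes of retinoic acid receptors, had log2 changes of 0.34 and 0.11, and Nr4a1 of 0.00. The coregulators that activate or silence these receptors were mostly expressed and none was called. Of 13 tested, 0 were called by limma or by the methods' t-test, 1 had a raw limma p no higher than 0.05, and the median log2 change was -0.03. Gps2, a subunit of the NCoR repressor complex, had the smallest p among them, at a log2 change of -0.23 (limma, adjusted p = 0.267).

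Genes of sterol uptake, storage, synthesis control and oxysterol metabolism showed 1 call in each direction among 15 tested of 22 listed. Their median log2 change was -0.01. The shares called over all tested genes were 1.36% higher and 0.907% lower. Gpr183, the receptor through which oxysterols guide DC and lymphocytes within the spleen, read 11.30, 11.27 and 11.36 in Runx3-/- litters 1, 2 and 3, against 10.68, 10.66 and 10.81 in WT. It was higher by 0.59 (SE 0.07, limma, adjusted p = 0.0269). Srebf2, the master regulator of cholesterol synthesis, read 10.37, 10.43 and 10.34 in Runx3-/- litters 1, 2 and 3, against 10.87, 10.78 and 10.85 in WT, and fell by 0.46 (SE 0.07, limma, adjusted p = 0.0373). Neither gene overlapped between genotypes, and both had narrow spreads. Nceh1, a cholesteryl ester hydrolase, had a log2 change of 0.63 (limma, adjusted p = 0.0567) and Npc2, a lysosomal cholesterol carrier, one of 0.54 (adjusted p = 0.103), neither of them called.

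Several genes followed here are also expressed by macrophages of the spleen, and markers of those cells moved with the members. Of 18 red pulp macrophage markers, 15 were tested and 7 were called higher (Spic, C1qa, C1qb, C1qc, Axl, Mertk and Cd5l). All 15 had positive changes, with a median of 1.22 and no overlap between genotypes for 13. Cd5l and Siglec1 were below background in all WT arrays and passed the filter only through Runx3-/- arrays. Being tested therefore already favoured a higher value for both. Spic, the lineage factor of red pulp macrophages, averaged 10.76 ± 0.21 in Runx3-/- and 9.36 ± 0.23 in WT (SD, n = 3 each), a log2 change of 1.40 (limma, adjusted p = 0.0205). Vcam1 and Slc40a1, the iron exporter, had log2 changes of 1.39 and 1.07 without overlap (limma, adjusted p = 0.0674 and 0.163). The markers' summed level on the log2 scale was 14.13 to 14.34 in Runx3-/- arrays and 13.29 to 13.70 in WT arrays. Cd163, a haemoglobin scavenger receptor, and Marco, better known from marginal zone macrophages, were below background in all 6 arrays. Adgre1, the gene of F4/80, had a log2 change of 0.01 (limma, adjusted p = 0.968), and Hmox1 one of 0.22 (adjusted p = 0.597). Mertk and Cd5l belong to both this list and the LXR targets, and 0 members are in it. Of 12 monocyte markers, 8 were tested and 1, Cx3cr1, was called higher, with a median log2 change of 0.75. The summed level was 14.43 to 14.49 in Runx3-/- and 13.92 to 14.16 in WT. The study counts Cx3cr1 among genes of CD11b+ DC with low Esam, so it does not mark monocytes alone. The part of macrophages and monocytes in the member changes was not tested. All 12 CD4+ DC markers were above background in both genotypes, with 8 negative and 4 positive log2 changes and a median of -0.12. Irf4 was called lower, and 6 markers were lower without overlap (Itgax, Flt3, Zbtb46, Irf4, Notch2 and Clec4a4), while Itgam and Sirpa were higher without overlap. For these marker lists, the shares without overlap over all tested genes were 9.86% higher and 18.6% lower. The shares called were 1.36% higher and 0.907% lower, and 4099 of 9922 tested genes had positive changes.

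**Figure D4:**
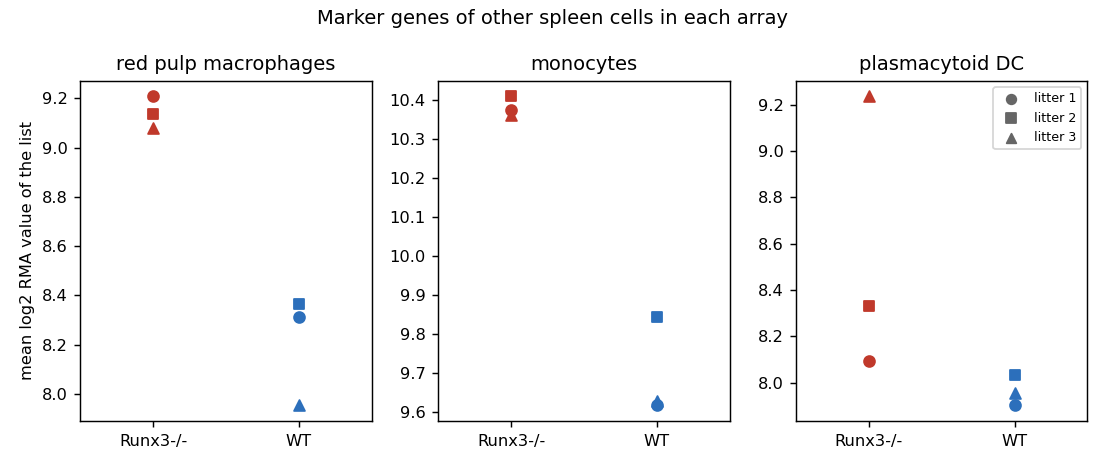
Mean log2 level of 3 cell type marker lists in each array, Runx3-/- left of WT, with a symbol for each litter. Red pulp macrophage and monocyte markers are higher in all Runx3-/- arrays, at 9.08 to 9.21 against 7.95 to 8.36 and at 10.36 to 10.41 against 9.62 to 9.84, and plasmacytoid DC markers are highest in Runx3-/- 3.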

How the data were processed

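RNA of sorted CD4+ DC from 3 Runx3-/- and 3 WT mice was measured on Affymetrix arrays. The authors summarised probe sets with RMA and GC correction in Partek and deposited log2 values. Build mm9 stands in the submitters' processing notes. No software version is given in these sources. RMA brings all arrays to a common distribution, which hides changes shared by most genes, and compresses values near the floor. An exon array is named in the methods, but the annotation used is that of a gene-level array. The labels and the methods name different RNA kits. The annotation gave 1 symbol for 21789 probe sets, several for 1621 and none for 11989.

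Values were used as deposited. Probe sets at 6.5 or more in at least 1 array were tested by limma 3.58.1 under R 4.3.3 (two-sided, lmFit then eBayes, genotype alone), with Benjamini-Hochberg adjustment over all 19149. The script was tested on simulated data. The probe set with the highest mean stood for a gene. Because mice were littermates, the litter was also fitted as a replicate block. Deviations of littermates from their group means correlated at 0.158, 0.102 and 0.246, against -0.230 to 0.103 between litters. Such deviations cancel within each genotype, so the between-litter values are tied to those of littermates and are not an independent baseline. Alternatives were no filter, a filter on 3 arrays, quantile normalization, median centring, a trended prior, an ordinary t-test, each array left out, and litter 3 left out. The Benjamini-Hochberg adjustment was used in all of them. The named genes were Runx3, the listed members, called genes and up to 3 genes of smallest p per list, and 3 nearest patterns each for Nr1h3, Pparg and Abca1; marker genes and further list members with values were added after they were seen. Members and lists were chosen with earlier results of these data known. Promoter windows came from RefSeq, and no coordinates were converted between builds. Precision is limited by the 3 arrays a group.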

Additional observations from a re-analysis of the deposited data

How the results depend on the processing

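Over all probe sets, 298 were called, 277 without the filter, 341 with a filter on 3 arrays, 290 after quantile normalization, 310 after median centring and 375 with a trended prior. The litter as a replicate block left 0 (3430 at a raw p no higher than 0.05), and the ordinary t-test 6. Leaving out 1 array left 0 to 205 (40, 205 and 1 with Runx3-/- 1, 2 or 3 dropped, and 0, 137 and 75 with WT 1, 2 or 3 dropped). Leaving out litter 3, a setting added after seeing the data, left 0 (2435 at a raw p no higher than 0.05). Of the member calls, 4 in the reported fit, 3 were left without the filter or with a trended prior. The count was 0 with the litter block, 0 by the ordinary t-test, 0 without litter 3, and 0 to 2 without 1 array. The t-test counts here use the same Benjamini-Hochberg adjustment, which the study's methods do not name. At the study's cut-offs of raw p and fold, that t-test kept 4 members and 594 probe sets. Under the litter block, the t-test and litter 3 left out, the calls were 0, 1 and 0 for other LXR targets (3 reported), 0, 0 and 0 for PPAR targets (1 reported), 0, 0 and 0 for sterol genes (2 reported) and 0, 0 and 0 for red pulp macrophage markers (7 reported). Without 1 array they were 0 to 1, 0 to 1, 0 to 1 and 0 to 4 for these lists, and the PPAR target call was also lost, to 0, without the filter. The Runx3 change was -1.98 with the litter block (limma, adjusted p = 0.0609), -1.999 without litter 3 (adjusted p = 0.123) and -2.03 to -1.96 without 1 array (adjusted p = 0.0532 without WT 1). Of the member changes, Mylip reversed, to 0.00955 without WT 2 (-0.23 to 0.00955 over the arrays left out), and the other 8 kept their direction in all 14 alternatives. For members whose groups do not overlap, leaving out arrays cannot change the direction. Leaving out arrays removes residual degrees of freedom, and the cause of the other differences was not tested. Abca1 in WT lies close to background, which limits its fold.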

Other observations

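Among markers of the other DC subset, CD8+ DC, 9 of 10 listed were tested and 2 were called higher in Runx3-/- DC. Of the 9, 8 changes were positive and 1 negative. Among all tested genes, 1.36% were called higher and 0.907% lower, and 9.86% lay higher and 18.6% lower without overlap. Positive changes were seen for 4099 of all 9922. Irf8, which encodes a transcription factor that CD8+ DC require, averaged 10.03 ± 0.41 in Runx3-/- and 8.70 ± 0.08 in WT (SD, n = 3 each), a log2 change of 1.33 (SE 0.20, limma, adjusted p = 0.0418). Irf8 was highest in Runx3-/- 3, the array that stood apart in plasmacytoid DC genes, at 10.47 against 9.96 and 9.66 in Runx3-/- 1 and 2. The study also counts Irf8 among genes of CD11b+ DC with low Esam, so it does not mark CD8+ DC alone. Cadm1, a cell adhesion molecule of CD8+ DC, averaged 9.39 ± 0.06 in Runx3-/- and 8.40 ± 0.07 in WT, a change of 0.99 (SE 0.07, limma, adjusted p = 0.0127). Batf3, another factor of CD8+ DC development, had a log2 change of -0.47 without overlap (limma, adjusted p = 0.199), at 8.14, 8.02 and 7.74 in Runx3-/- litters 1, 2 and 3, against 8.67, 8.35 and 8.30 in WT. Xcr1 and Cd36, the latter also listed as a PPAR target, were higher without overlap but not called. Their log2 changes were 0.68 and 0.41 (limma, adjusted p = 0.156 and 0.232). The changes of Clec9a (0.61), Cd8a (0.39), Ly75 (0.30) and Tlr3 (0.09) did not pass and their groups overlapped. Only Runx3-/- 3 reached 6.5 for Cd8a, at 6.54, so the Cd8a change rests on values near the floor. Irf4, which CD4+ DC use, was lower, at 9.62 ± 0.16 in Runx3-/- and 10.24 ± 0.02 in WT (log2 change -0.62, SE 0.10, limma, adjusted p = 0.0434).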
